A study of Mus musculus with 4 samples.

Results

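The genes described here are the Wnt ligands, the Frizzled receptors and a fixed set of co-receptors, inhibitors and signal transducers of the Wnt pathway. They were taken from the deposited table by gene symbol, 1 row per Entrez identifier, with no cut on their values, which gave 56 genes of 27178. The genes were chosen with earlier results of these data known. RNA came from sorted tdT-positive cells, which descend from the neural crest, taken from the gut of Wnt1-tdT embryos of the mouse 11.5 days post coitum. There were 2 wavefront libraries, from cells at the leading edge of the migration along the gut, and 2 trailing libraries, from cells 1 to 1.5 mm behind that edge. All 4 libraries share the stage, the reporter and the sort; the labels give no other genotype, strain or treatment, and do not say how the Wnt1-tdT reporter was built. The labels do not say whether libraries came from separate embryos, so each p-value rests on a spread between libraries that may be technical.

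Wnt proteins are secreted, lipid-modified ligands that bind Frizzled receptors. With the co-receptors Lrp5 and Lrp6 they recruit Dishevelled, which stops a destruction complex of Axin, Apc and Gsk3 from marking beta-catenin for degradation, and beta-catenin then acts with Tcf and Lef factors on target genes. Through Ror, Ryk and Vangl proteins the same receptors also act on cell polarity and movement without beta-catenin, and in the embryo Wnt signals help to induce the neural crest and to direct axons and migrating cells.

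Reads were recovered from the deposited CPM, a gene's reads relative to all reads of its library. The libraries held 511074 and 447224 reads in trailing replicates 1 and 2, 535636 in wavefront replicate 1 and 258457 in wavefront replicate 2. Ribosomal RNA made up 15.6 to 26.1% of reads in 3 libraries and 55.5% in wavefront replicate 2, which left 114972 other reads there against 330644 to 452144. Levels below are therefore given as scaled CPM, which are CPM after adjustment for library composition with edgeR's TMM factors. Markers of enteric crest cells were read in all 4 libraries: Ret, the receptor for Gdnf, had 864 and 545 trailing reads and 1413 and 155 at the wavefront, Ednrb 269 and 167 and then 236 and 51, and Sox10 22 and 26 and then 14 and 4. The 10 listed enteric neuron markers summed to 3136 and 3221 scaled CPM trailing and to 792 and 635 at the wavefront. Of the cells that a gut sort could also hold, red cell markers (8 listed) summed to 2, 0 and 1 reads and, in wavefront replicate 2, 111.

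At this depth the Wnt genes of these cells divided into a few well-read genes, led by Ctnnb1, Gsk3b and the receptor gene Fzd3, and a long list of genes with few or no reads. Of the 56 genes 38 (67.9%) had a read in any library, against 53.7% of all genes. A total of 25 had 1 to 19 reads over the 4 libraries and 13 had 20 or more. The 56 genes held 1919 reads, of which Ctnnb1, Gsk3b and Fzd3 gave 1355 (70.6%). Per length, on the scale of scaled CPM per kilobase of annotated exon (mean ± SD over the 4 libraries), Ctnnb1, the gene of beta-catenin, was highest at 69.8 ± 15.3. Gsk3b, the kinase that phosphorylates beta-catenin, followed at 25.8 ± 6.15, then Fzd3 at 6.93 ± 0.71 and the polarity gene Vangl2 at 3.75 ± 1.23. Ctnnb1, Gsk3b, Fzd3 and Vangl2 lay apart from each other by more than their spread. Vangl2 and the genes next below it, Dkk3 (3.47 ± 1.85), Sfrp1 (3.31 ± 1.56) and Dvl3 (3.28 ± 1.44), did not differ beyond theirs. Among all genes with a read and a length, Ctnnb1 stood above 97.1%, Gsk3b above 91.3%, Fzd3 above 71.2% and Lef1, at 0.54 ± 0.45, above 20.7%.

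**Figure D1:**
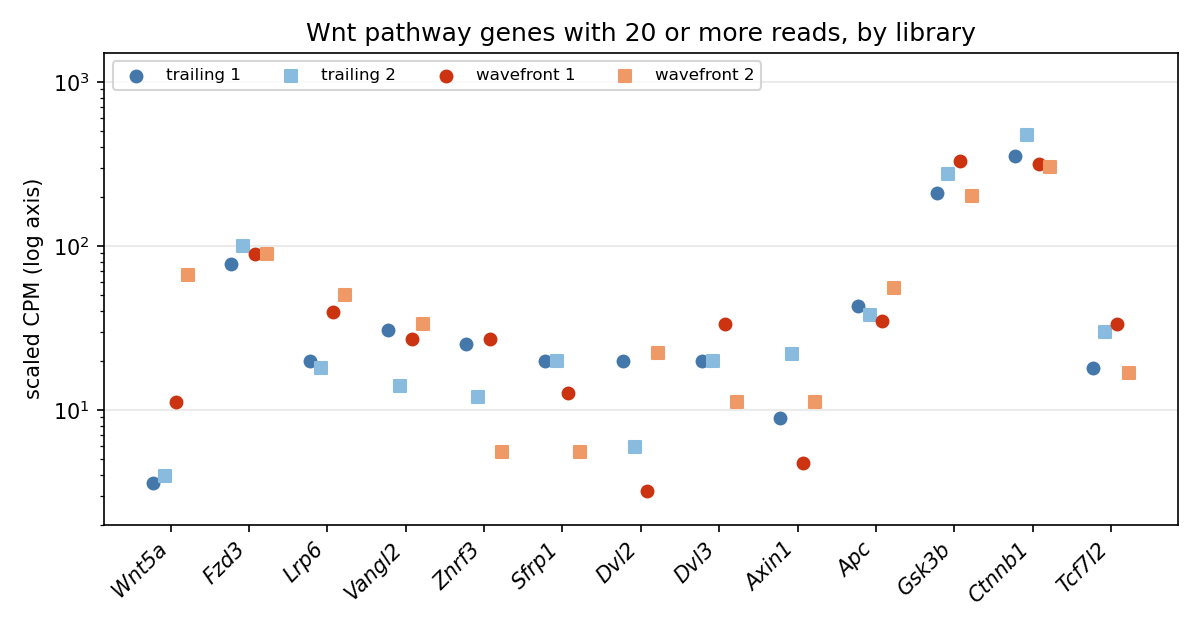
Levels of the 13 Wnt pathway genes with 20 or more reads. The vertical axis is scaled CPM on a log axis, each point is 1 library (circles replicate 1, squares replicate 2, blue trailing, red and orange wavefront); Ctnnb1 and Gsk3b lie highest in all 4 libraries, and Wnt5a shows the widest distance between wavefront replicate 2 (66.8) and the trailing libraries (3.59 and 3.97).

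No gene of the set passed the test planned for these values or the count test with its filter. The planned test, limma on log2(CPM + 1) over all genes, tested 33 of the 56 genes and called 0 at a Benjamini-Hochberg adjusted p under 0.05, where it called 0.0% of all 12519 genes tested. At an unadjusted p under 0.05 limma gave 2 of the 33 (Wnt5a and Dkk2), against 6.85% of all genes. On recovered reads the edgeR quasi-likelihood test (the count test below) tested 10 of the 56 and called 0, where it called 1.74% of 5759 genes and 1 of the 10, Lrp6, had an unadjusted p under 0.05, against 9.95% of all genes. DESeq2 on the same reads called 0 of the 6 genes to which it gave an adjusted p (0.277% of 4690 genes), and the authors' deposited table, once its p-values were adjusted, 0 of 38 (0.0891% of 14589). Each gave 1 gene of the set, Wnt5a, at an unadjusted p under 0.05, and DESeq2 gave Wnt5a no adjusted p. Over all 14589 genes with a read, DESeq2 gave 160 at that unadjusted p, counted with or without an adjusted p. The authors' p-values gave 142 of 14589. In the count test 8 of the 10 had a log2 fold change (wavefront over trailing) above 0, with a median of 0.17 beside 0.01 for all genes. In limma 24 of 33 lay below 0, with a median of -0.57 beside -0.35 for all genes. With CPM rescaled by TMM the limma values split into 14 above and 18 below 0, with a median of -0.18 beside -0.05. Standard errors (SE) of the log2 fold change in the count test ran from 0.32 to 0.65; below, a value ± error printed before an adjusted p is a log2 fold change, wavefront over trailing, ± SE. Wnt5a alone passed a count test, the one run with no filter on low counts, where 1 of 38 genes was called and 2 (Wnt5a and Lrp6) had an unadjusted p under 0.05, against 6.5% of all genes.

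**Figure D2:**
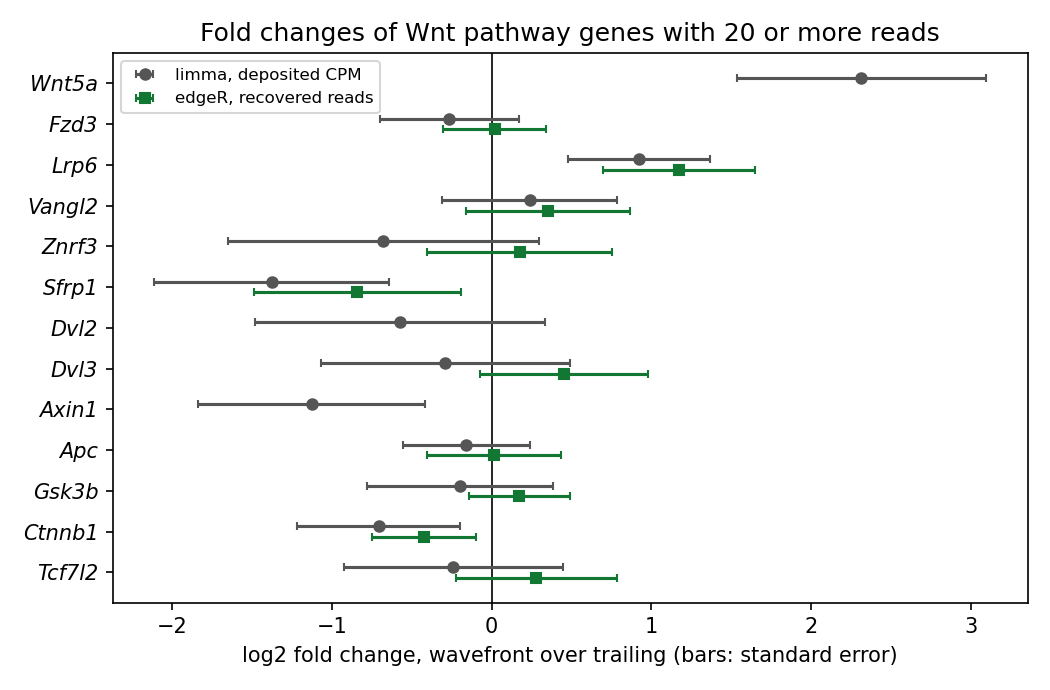
Log2 fold changes, wavefront over trailing, of the 13 genes with 20 or more reads, on the horizontal axis with bars of 1 standard error. Grey circles are limma on deposited CPM, and green squares edgeR on recovered reads for the 10 genes past its filter; Wnt5a at 2.32 and Lrp6 at 0.92 and 1.17 lie farthest to the right, and Fzd3, Apc and Gsk3b lie near 0 in the count test.

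Among the ligands, Wnt5a was the only gene with more than 2 reads. Wnt5a (chromosome 14, 28504750 to 28527448, plus strand, GRCm38) encodes a ligand known mostly for polarity and migration signals without beta-catenin. It is made in many embryonic mesenchymes. Its annotated exons overlap Gm2670 on the other strand, which was not analysed here. The libraries do not keep the strand, so reads of the 2 genes cannot be told apart there. Wnt5a had 2 reads in each trailing library and 7 and 12 at the wavefront (replicates 1 and 2). In scaled CPM these were 3.59, 3.97, 11.1 and 66.8, so both wavefront libraries lay above both trailing ones and far apart from each other. Groups did not overlap in this direction for 18.6% of the genes of the count test, a set that leaves out Wnt5a. Pooled by group, 19 wavefront reads against 4 gave a scaled ratio of 6.23 (95% exact counting interval 2.07 to 25.2; counting error only, since reads carried no molecular identifiers). In limma the log2 fold change was 2.32 ± 0.78 SE (adjusted p = 0.680). Wnt5a lay below the filter of the count test; without that filter edgeR gave 2.77 ± 0.72 with an adjusted p of 0.0209, in a test that called 0.802% of 14589 genes and 0.24% as higher at the wavefront. Without wavefront replicate 2 the log2 fold change was 1.60 and the call was lost (edgeR adjusted p = 0.719). The call was also lost, at folds close to the first, without trailing replicate 1 (2.79, adjusted p = 0.879), without trailing replicate 2 (2.88, 0.315) and with scaling by library size alone (2.55, 0.0936). It held without wavefront replicate 1 (3.93, edgeR adjusted p = 0.000422), without ribosomal RNA (2.77, 0.0191) and with the replicate number as a block (3.02, 0.0199). In the authors' deposited table the log2 fold change of Wnt5a was 1.10 ± 0.45 with an unadjusted p of 0.0152, the smallest of the 38 genes with a value, and 0.9997 after adjustment over the table here. DESeq2 on the recovered reads gave 3.22 ± 1.28 with an unadjusted p of 0.0120. The deposited fold and error are thus both smaller at a similar p, and the size of that fold cannot be set beside the others.

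The summed gut mesenchyme markers were higher in the same libraries as Wnt5a, in wavefront replicate 1 through 2 of the 13 genes. The 13 listed markers summed to 161 and 159 scaled CPM trailing and to 368 and 958 at the wavefront, with a read for 7, 8, 8 and 12 of the 13. Myh11, a smooth muscle myosin, was at 0 in all 4 libraries, and Foxf1 and Foxf2, transcription factors of gut mesenchyme, had reads only in wavefront replicate 2, 2 and 3. Against the pooled trailing libraries, wavefront replicate 1 held 2.95 times the Wnt5a (95% exact counting interval 0.75 to 13.8) and 2.29 times the marker sum (1.87 to 2.81). Wavefront replicate 2 held 17.7 times the Wnt5a (5.37 to 75.4) and 5.98 times the marker sum (4.81 to 7.43). In wavefront replicate 1 the higher sum came from Des, a muscle filament protein (8 and 6 trailing reads, 73 there), and Col3a1, a collagen (65 and 58 trailing, 132 there). The other 11 markers, a split made after the values were seen, gave 17 and 16 trailing reads and 26 in wavefront replicate 1, a scaled ratio of 1.33 (0.76 to 2.29), with Acta2 and Dcn at 0 there. In wavefront replicate 2 the same 11 gave 68 reads, a ratio of 12.2 (7.92 to 19.1). Per 100 reads of all 13 markers there were 2.22, 2.5, 3.03 and 6.98 Wnt5a reads in the same order, with overlapping intervals from 0.27 to 8.26 in trailing replicate 1 and from 3.54 to 12.5 in wavefront replicate 2. Gut epithelium markers (9 listed) summed to 7.18, 5.96, 22.3 and 55.7 scaled CPM with Foxa1 at 0 in all libraries, and mesothelium markers (6 listed) to 0, 0, 3.18 and 27.9 with Wt1, Upk3b, Msln and Lrrn4 at 0. The part of these cells in the Wnt5a difference was not tested, and in sorted bulk samples more cells of a type and more RNA per cell cannot be told apart.

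**Figure D3:**
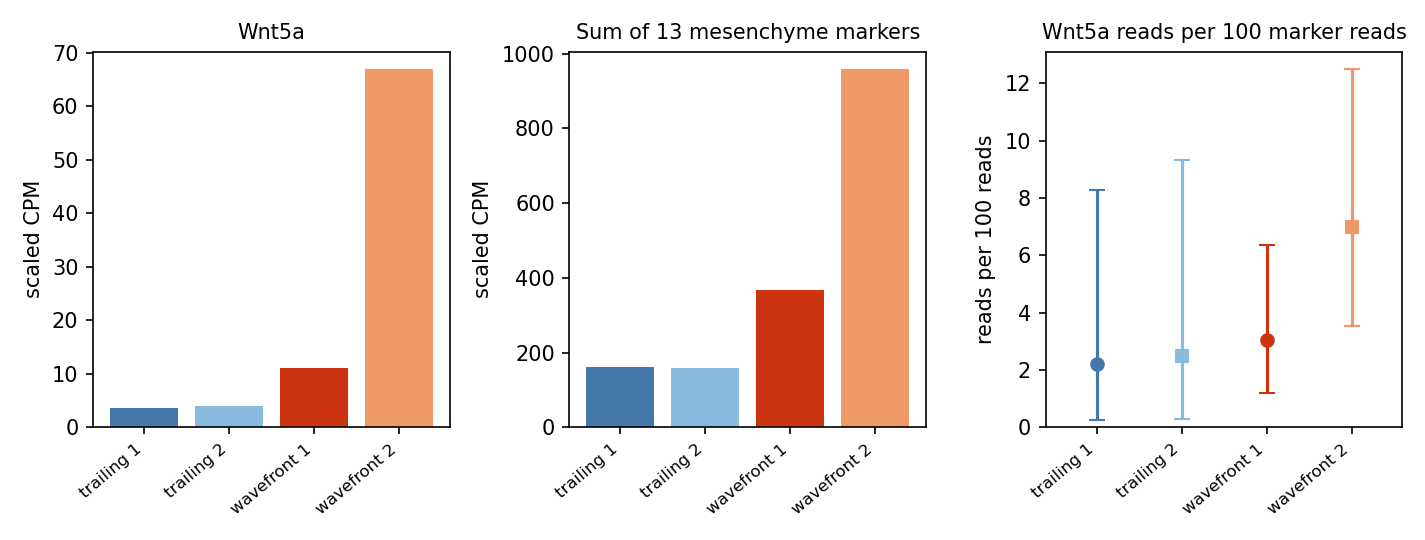
Wnt5a beside the gut mesenchyme markers. Bars in the left and middle panels give scaled CPM of Wnt5a and of the summed 13 markers in each library; points at the right give Wnt5a reads per 100 marker reads with 95% exact counting intervals, which overlap in all 4 libraries.

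The other 18 ligand genes gave 6 reads in all. Wnt10a had 2 reads, Wnt2b, Wnt4 and Wnt9b 1 each, all in trailing libraries, and Wnt16 had 1 in wavefront replicate 2. The remaining 13, with 0 reads in every library, were Wnt1, Wnt2, Wnt3, Wnt3a, Wnt5b, Wnt6, Wnt7a, Wnt7b, Wnt8a, Wnt8b, Wnt9a, Wnt10b and Wnt11. A count of 0 allows up to 3 reads. In deposited CPM this is 5.80 and 6.64 in trailing replicates 1 and 2 and 5.52 and 11.5 in wavefront replicates 1 and 2. In scaled CPM 3 reads are 5.38, 5.96, 4.77 and 16.7 in the same order. Wnt1, the gene that the reporter of these sorted cells is named for, was among the genes at 0 at both positions.

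Among the Frizzled receptors, Fzd3 gave most of the reads in every library. Fzd3 (chromosome 14, 65192449 to 65262463, minus strand) encodes a receptor known for polarity signalling and for axon growth and guidance in the nervous system. It had 43 and 50 trailing reads and 56 and 16 at the wavefront, or 77.2, 99.4, 89.1 and 89.1 scaled CPM. The wavefront values lay between the trailing ones, with group means of 88.3 ± 15.7 and 89.1 ± 0.02 scaled CPM (SD, n = 2 each). The log2 fold change was 0.02 ± 0.32 in edgeR (adjusted p = 0.996) and -0.27 ± 0.44 in limma (0.917), and with CPM rescaled by TMM limma gave 0.03 ± 0.32. Of the reads of all 10 Frizzled genes, Fzd3 gave 71.7% (43 of 60, 95% exact binomial interval 58.6 to 82.5%) and 84.7% (50 of 59) in trailing cells. At the wavefront it gave 86.2% (56 of 65) and 94.1% (16 of 17, 71.3 to 99.9%). Fzd3 has the longest exon sequence of the family, and per kilobase its share was 50.9, 65.5, 68.3 and 82.1% in the same order. Its level per kilobase was 6.93 ± 0.71 scaled CPM, and that of the next Frizzled, Fzd7, was 1.26 ± 0.89.

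The other 9 Frizzled genes had 36 reads together. Fzd7, a receptor used with and without beta-catenin, had 5 and 3 trailing reads and 5 and 0 at the wavefront. Fzd4, the receptor for Norrin as well as for Wnt ligands, had 5 and 0 trailing reads and 0 and 0 at the wavefront, and Fzd5 had 3 and 0 against 0 and 0, so in each 1 library gave all reads. Fzd1 had 5 reads, Fzd2 had 4, Fzd6 3, Fzd8 2 and Fzd10 1, and Fzd9 had 0. None of the 9 passed the filter of the count test.

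**Figure D4:**
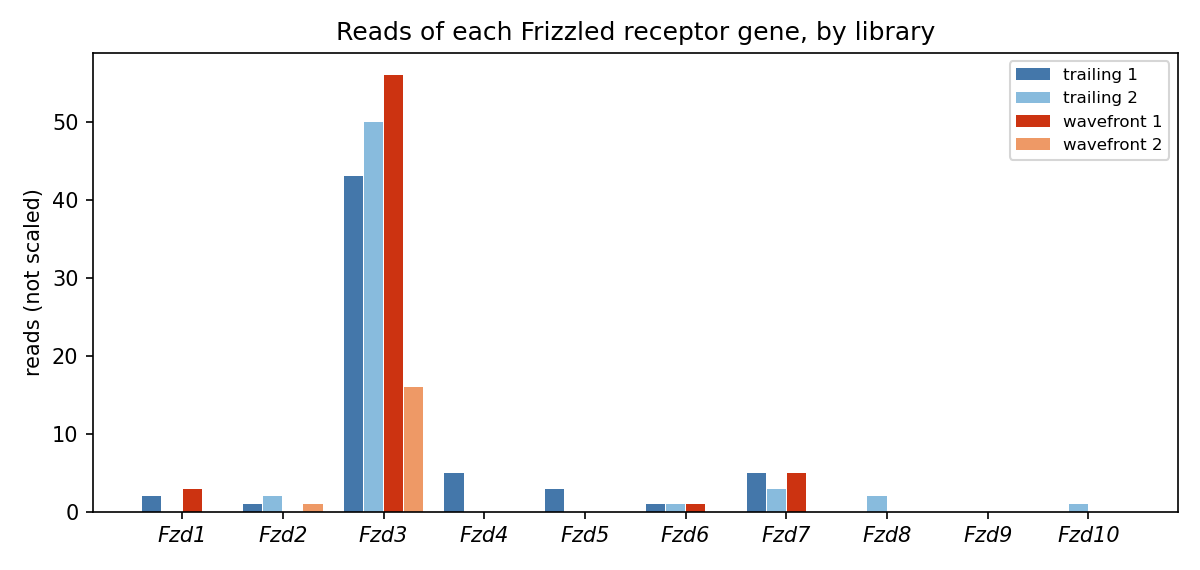
Reads of the 10 Frizzled genes. Bars are reads in each library, not scaled for depth (wavefront replicate 2 is the shallowest); Fzd3 gave 16 to 56 reads per library and no other Frizzled gave more than 5.

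Of the co-receptors, Lrp6 was higher in both wavefront libraries without passing a test. Lrp6 (chromosome 6, 134446476 to 134566965, minus strand), which carries the Wnt signal to Axin, had 11 and 9 trailing reads and 25 and 9 at the wavefront. In scaled CPM these were 19.7 and 17.9 against 39.8 and 50.1, groups that do not overlap, which was so for 18.6% of the genes of the count test in this direction. The log2 fold change was 1.17 ± 0.48 in edgeR (adjusted p = 0.338) and 0.92 ± 0.45 in limma (adjusted p = 0.689). It stayed between 1.12 and 1.40 in edgeR with any 1 library left out, with adjusted p from 0.288 to 1.00. The mesenchyme marker sums given for Wnt5a were also higher in both wavefront libraries (in replicate 1 through Des and Col3a1), and their part in the Lrp6 values was not tested. Lrp5, its close relative, had 7 and 2 trailing reads and 3 and 4 at the wavefront.

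No receptor or membrane protein of polarity signalling passed a test. Vangl2, a core planar polarity protein, had 17 and 7 trailing reads and 17 and 6 at the wavefront, or 30.5, 13.9, 27.0 and 33.4 scaled CPM, with overlapping groups (0.35 ± 0.51, edgeR adjusted p = 0.897). Ryk, a Wnt receptor related to receptor kinases, had 4 and 9 trailing reads against 3 and 0. Ror1 and Ror2, receptors of Wnt5a, had 1 and 1 against 0 and 1, and 3 and 0 against 0 and 3. Of the ubiquitin ligases that remove Frizzled from the cell surface, Znrf3 had 14 and 6 trailing reads against 17 and 1, or 25.1, 11.9, 27.0 and 5.57 scaled CPM. In Znrf3 both the highest and the lowest library were wavefront libraries (0.18 ± 0.58, edgeR adjusted p = 0.963; limma -0.68 ± 0.97), and Rnf43, its relative, had 0 reads.

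Of the secreted inhibitors, 4 of 6 had reads and 1 was tested by counts. Sfrp1, a Frizzled-like protein that binds Wnt ligands, had 11 and 10 trailing reads and 8 and 1 at the wavefront. In scaled CPM these were 19.7 and 19.9 against 12.7 and 5.57, lower in both wavefront libraries, as in 20.7% of the genes of the count test. It did not pass (-0.84 ± 0.65, edgeR adjusted p = 0.749; limma -1.38 ± 0.73, adjusted p = 0.718). Dkk3, a member of the Dickkopf family, had 6 and 8 trailing reads against 2 and 3, and Sfrp2 had 1 and 5 against 2 and 2. Dkk2, a ligand of Lrp6, had no trailing read and 2 in each wavefront library (limma adjusted p = 0.680). With 3 reads set for the trailing group its scaled ratio would be 1.75, which takes the wavefront reads as exact and is no lower limit. Dkk1 and Sfrp5 had 0 reads. The Dkk2 reads came from the libraries with the higher mesenchyme marker sums (in wavefront replicate 1 through Des and Col3a1), whose part in them was not tested.

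In the cytoplasm, genes of the Dishevelled proteins and the destruction complex were read at both positions. Ctnnb1 (chromosome 9, 120929216 to 120960507, plus strand) had 198 and 240 trailing reads and 199 and 54 at the wavefront. In scaled CPM these were 355 and 477 against 317 and 301, so the groups did not overlap, as for 20.7% of the genes of the count test in this direction, with means of 416 ± 86.0 and 309 ± 11.2 (SD, n = 2 each). The difference did not pass (-0.43 ± 0.32, edgeR adjusted p = 0.746; limma -0.71 ± 0.51, adjusted p = 0.786). The summed enteric neuron markers were likewise lower in both wavefront libraries, and their part in the Ctnnb1 and Sfrp1 values was not tested. Gsk3b (chromosome 16, 38089001 to 38246084, plus strand) had 117 and 139 trailing reads and 207 and 36 at the wavefront, or 210, 276, 329 and 201 scaled CPM. For Gsk3b the highest and the lowest library were both wavefront libraries (0.17 ± 0.32, edgeR adjusted p = 0.922). Apc, the scaffold of the destruction complex, had 24 and 19 trailing reads and 22 and 10 at the wavefront, or 43.1, 37.8, 35.0 and 55.7 scaled CPM (0.01 ± 0.42, edgeR adjusted p = 0.997). Axin1, the other scaffold, had 5 and 11 reads against 3 and 2, with scaled CPM of 8.97 and 21.9 against 4.77 and 11.1 that overlap.

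The promoter windows of Gsk3b and Axin2 are shown as examples of a well-read and an unread gene of the same complex, from RefSeq (GRCm38.p6), 250 bases before to 50 after an annotated start. Capitals mark the core of the Tcf and Lef binding motif, CTTTGA or on the other strand TCAAAG. Gsk3b lies at chr16:38088751-38089050 and Axin2 at chr11:108920099-108920398, both on the plus strand.
Gsk3b: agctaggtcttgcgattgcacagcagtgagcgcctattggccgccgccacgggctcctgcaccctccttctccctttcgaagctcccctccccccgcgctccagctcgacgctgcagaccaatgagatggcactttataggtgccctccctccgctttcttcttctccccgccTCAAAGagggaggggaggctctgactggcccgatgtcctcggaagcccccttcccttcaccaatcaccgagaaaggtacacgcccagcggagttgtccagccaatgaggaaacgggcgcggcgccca
Axin2: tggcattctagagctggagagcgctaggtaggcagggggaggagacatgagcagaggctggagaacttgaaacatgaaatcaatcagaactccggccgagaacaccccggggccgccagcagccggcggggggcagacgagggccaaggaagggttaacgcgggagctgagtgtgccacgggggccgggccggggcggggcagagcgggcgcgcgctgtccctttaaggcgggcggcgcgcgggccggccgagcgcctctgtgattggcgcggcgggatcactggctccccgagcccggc
The Gsk3b window held 1 match and the Axin2 window none. Of 51 windows of the 41 genes with an entry, 7 (13.7%) held the motif, against 5257 of 32851 windows (16%) of all genes. A match is a run of letters and not a measured binding site.

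The Dishevelled genes, which relay the signal from receptor to destruction complex, did not pass a test. Dvl3 had 11 and 10 trailing reads and 21 and 2 at the wavefront, or 19.7, 19.9, 33.4 and 11.1 scaled CPM, with the trailing libraries between the wavefront ones (0.45 ± 0.53, edgeR adjusted p = 0.867; limma -0.29 ± 0.78). Dvl2 had 11 and 3 against 2 and 4 reads, or 19.7 and 5.96 against 3.18 and 22.3 scaled CPM, and Dvl1 had 4 and 11 against 4 and 0. Annotated exons of Dvl2 overlap those of Acadvl, on the other strand, which had 41 reads, and the libraries do not keep the strand, so reads of the 2 genes cannot be told apart there. Ctnnb1 likewise overlaps Ulk4, which had 4 reads.

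In the nucleus, Tcf7l2 gave 70.0% of the reads of the Tcf and Lef factors over all libraries, with shares that differed widely between libraries. It had 10 and 15 trailing reads and 21 and 3 at the wavefront, or 17.9, 29.8, 33.4 and 16.7 scaled CPM, with overlapping groups (0.28 ± 0.50, edgeR adjusted p = 0.920). It held 49 of the 70 reads of the 4 factors (95% exact binomial interval 57.9 to 80.4%), 10 of 14 and 15 of 26 in the trailing replicates and 21 of 24 and 3 of 6 at the wavefront. Per kilobase its share was 56.5, 40.8, 79.3 and 28.1% in the same order, and in wavefront replicate 2 Tcf7 (4.24 scaled CPM per kilobase, from 2 reads) lay above Tcf7l2 (1.90). Lef1, itself a target of the pathway in many tissues, had 1 and 5 reads against 1 and 1. Tcf7 had 0 and 3 against 0 and 2, and Tcf7l1, known mostly as a repressor, had 3 and 3 against 2 and 0.

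Axin2 (chromosome 11, 108920349 to 108950783, plus strand), an inhibitor in the destruction complex that beta-catenin is widely known to induce, had 0 reads in all 4 libraries. Nkd1, an inhibitor of Dishevelled, had 2 and 2 trailing reads against 0 and 3. A low level of Axin2 RNA, below the limits given for the ligands, cannot be told from none at these depths.

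A wider list of 90 other Wnt pathway genes in the table also gave no call. Of these, 72 had a read, limma tested 64 and called 0, and edgeR tested 33 and called 0 (1.74% over all genes), with 17 above and 16 below 0 and a median log2 fold change of 0.01. Ptk7, a receptor-like protein of polarity signalling in crest migration, came nearest: it had 27 and 18 trailing reads and 56 and 18 at the wavefront, or 48.4 and 35.8 against 89.1 and 100.3 scaled CPM (1.13 ± 0.34, edgeR adjusted p = 0.0794; limma adjusted p = 0.689). Its wavefront values lay above the trailing ones, as in 18.6% of the genes of the count test. So did the mesenchyme marker sums (in replicate 1 through Des and Col3a1), whose part was not tested. Kremen1, a co-receptor of Dickkopf proteins, was at 0.73 ± 0.48 (edgeR adjusted p = 0.684). Of genes for ligand export, Wls, which carries Wnt proteins to the cell surface, had 55 and 35 trailing reads against 57 and 20 (log2 fold change 0.21 ± 0.32, edgeR adjusted p = 0.906), and Vps35, which recycles Wls, was at 0.14 ± 0.32.

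Ccnd1, the cyclin D1 gene and a target of several pathways, had 590 and 403 trailing reads and 1022 and 191 at the wavefront (0.54 ± 0.37, edgeR adjusted p = 0.706). Myc, another shared target, had 35 and 39 against 21 and 11 (-0.76 ± 0.37, edgeR adjusted p = 0.487). The most-read cytoplasmic and nuclear genes of the list did not pass in edgeR either, with log2 fold changes given in brackets for the casein kinases Csnk1a1 (0.33 ± 0.33) and Csnk1d (-0.41 ± 0.31), the chromatin remodeller Smarca4 (-0.18 ± 0.34) and the coactivator Crebbp (-0.17 ± 0.38). Celsr2, a polarity cadherin, was at 0.33 ± 0.50, and Vangl1 had 13 and 9 reads against 8 and 5. The listed inhibitors outside the cell with the most reads, Tpbg and Frzb, had 11 and 4. At an unadjusted p under 0.05 edgeR gave 4 of 33 (Ptk7, Apc2, Aes and Myc), against 9.95% of all genes, and limma 2 of 64 (Draxin and Apc2), against 6.85%, of which Apc2, Aes and Draxin are named after their values were seen. Apc2, an Apc relative of neurons, had 13 and 19 reads trailing and only 4 and 2 ahead (-1.97 ± 0.65, edgeR adjusted p = 0.124), in libraries whose summed enteric neuron markers were lower at the wavefront, and the part of neurons in that difference was not tested.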

How the data were processed

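RNA of 4 libraries was sequenced (Nextera XT, which keeps no strand). The submitters' processing notes name STAR 2.5.2b, featureCounts, DESeq2, bcl2fastq 2.17 and FastQC 0.11.9, with GRCm38 (annotation release and counting settings: not given in the sources used here). Per the file headers, CPM of each library is what the authors deposited. All values (100%) came within 0.01 reads of whole multiples of the value of a single read, which gave back the reads. The authors' deposited mean is a signal (reads over size factors), their deposited fold change and standard error are log2 values, their deposited Wald statistic is a score, and their deposited p-value is unadjusted. Of rows that repeat an identifier 428 were dropped. Rows with no symbol (958, with 1.27 to 2.51% of reads) stayed in the fits.

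The planned test was limma 3.58.1 (mean-variance trend) on log2(CPM + 1) of genes with a mean CPM above 1. The recovered reads were tested beside it with edgeR 4.0.16 (quasi-likelihood, TMM, filterByExpr at 10 reads, standard errors taken from the F statistic). Location was the only term. DESeq2 1.42.0 was an alternative (R 4.3.3). Tests are two-sided, adjusted by Benjamini-Hochberg over all genes tested, and the limma, edgeR and DESeq2 fits were also run on simulated counts. Genes with 20 or more reads are named with the value of every library, those with 1 to 19 with reads or ranges, and from the wider list the 2 genes with most reads in each role and any past the threshold. The genes and lists were chosen with earlier results of these data known. Coordinates and exon lengths are from GENCODE M21 (GRCm38). Alternatives changed the scaling, pseudocount, filter, tool, replicate block and libraries used.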

Additional observations from a re-analysis of the deposited data

How the results depend on the processing

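With 2 libraries per group and 1 of them shallow, calls over all genes depended on the processing, while 0 of the 56 Wnt genes passed in limma or in the filtered edgeR test under any alternative run; the unfiltered edgeR test called 1, Wnt5a. Limma's 0 calls became 3 with a pseudocount of 5, 5 with no filter, 36 with a mean CPM above 10, 46 with CPM rescaled by TMM, 9 with DESeq2 size factors and 4 without ribosomal RNA. The replicate block gave 52 in limma and 78 in edgeR, and deviations of same-numbered libraries correlated at 0.06 over 5759 genes, so the numbers were not shown to pair the libraries. edgeR's 100 calls (23 higher, 77 lower) became 74 with library size alone (9 higher, 65 lower), 13 in DESeq2 and 13 by the authors' p-values, and 41 to 142 with 1 library left out (41 without trailing replicate 2, 44 without trailing replicate 1). In such fits the lone library of a group is assumed to vary like the other group. The cause of these differences was not tested.

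No reversal below concerns a gene that passed a test. In limma, with TMM, with DESeq2 size factors and without ribosomal RNA in that order, the log2 fold change turned to 0.0251, 0.0207 and 0.0173 for Fzd3, 0.0314, 0.0284 and 0.0226 for Tcf7l2, 0.13, 0.12 and 0.12 for Apc and 0.0937, 0.0893 and 0.0857 for Gsk3b. In edgeR with library size alone it turned to -0.20 for Fzd3, -0.16 for Apc and -0.0194 for Gsk3b, and Znrf3 turned to -0.0151 in DESeq2, -0.0059 by the authors' values and -0.10 with the replicate block. With 1 library left out, limma ranged from -0.63 to 0.10 for Fzd3, -0.28 to 0.76 for Vangl2, -2.05 to 0.69 for Znrf3, -1.48 to 0.33 for Dvl2, -1.39 to 0.81 for Dvl3, -0.93 to 0.53 for Gsk3b and -1.07 to 0.59 for Tcf7l2. edgeR ranged from -0.13 to 0.21 for Fzd3, -0.0684 to 1.08 for Vangl2, -1.70 to 0.75 for Znrf3, -0.81 to 0.80 for Dvl3, -0.16 to 0.46 for Apc, -0.27 to 0.49 for Gsk3b and -0.49 to 0.64 for Tcf7l2. Wnt5a, Lrp6, Sfrp1, Axin1 and Ctnnb1 kept their direction in all fits that tested them. Of 273 values of named genes under alternatives, 231 kept direction and side of the threshold, 38 reversed and 4, all of Wnt5a without a filter, lost the call.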
